A study of Mus musculus with 8 samples.

Results

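The genes described here are 46 mouse genes that encode regulators of chromatin and DNA methylation, followed through the accessible DNA regions that lie nearest to them. A region was assigned to a listed gene when that gene was its nearest protein-coding gene in the RefSeq table, at a distance of 50 kb or less. By this rule 236 of the 61196 regions counted in the study belonged to 44 of the 46 genes. Hdac3, a deacetylase, and Rad21, a cohesin subunit, had no assigned region. A total of 41 regions of 39 genes lay within 1 kb of an end of the gene, mostly its start, and are called gene-end regions. The other 195 regions are called distal, with 148 of them inside the gene and 47 outside it. Nearness alone leaves unsettled on which gene a region acts.

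Accessibility was measured by ATAC-seq, in which the Tn5 transposase inserts adapters into open DNA, in sorted mouse bone marrow progenitor cells. The labels name 4 groups, GMP-MoP, proNeu1, proNeu2 and cMoP, with 2 samples each, and call the samples biological replicates without saying that they came from separate animals. P-values here rest on the spread of these samples alone, part of which may be technical. No strain, age, genotype, treatment or sorting gate is given in the labels for any of the groups. In the field cMoP names a common monocyte progenitor and proNeu1 and proNeu2 early neutrophil progenitors, and the series' title speaks of GMP-MoP as cells that arise from proNeu1.

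The products of these genes act in a few well-known steps. DNA methyltransferases place methyl groups on cytosine and TET enzymes oxidise them, Polycomb complexes place and read repressive histone marks, and trithorax-type methyltransferases and acetyltransferases place marks of active genes. Demethylases and deacetylases remove histone marks, remodellers move or eject nucleosomes, and CTCF and cohesin shape loops of chromatin. In the blood system several of these genes, among them TET2, DNMT3A, ASXL1 and EZH2, are known as targets of mutation in human clonal haematopoiesis and myeloid disease.

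The promoter sequences below belong to 4 genes whose gene-end region was more closed in GMP-MoP than in proNeu1, and more open in proNeu1 than in cMoP, under every scaling tried, followed by 2 genes whose promoter region passed the test between none of the groups with TMM scaling. Each is the 300-base window from 250 bases before to 50 bases after the start in the RefSeq promoter table (GRCm38.p6), 5′ to 3′ on the gene's strand, and each lies wholly inside a counted region. The windows are Hmgn2 at chr4:133967942-133968241 on the minus strand, Dot1l at chr10:80754953-80755252 on the plus strand, Ep300 at chr15:81585964-81586263 on the plus strand, Kmt2a at chr9:44881240-44881539 on the minus strand, Hdac2 at chr10:36974294-36974593 on the plus strand and Kdm6a at chrX:18162325-18162624 on the plus strand. Capitals mark matches, on either strand, to GAGGAA (PU.1-type ETS), TTGCNNAA (C/EBP-type) and GGGCGG (SP/KLF), where N is any base, and no match overlapped another in these windows.
Hmgn2: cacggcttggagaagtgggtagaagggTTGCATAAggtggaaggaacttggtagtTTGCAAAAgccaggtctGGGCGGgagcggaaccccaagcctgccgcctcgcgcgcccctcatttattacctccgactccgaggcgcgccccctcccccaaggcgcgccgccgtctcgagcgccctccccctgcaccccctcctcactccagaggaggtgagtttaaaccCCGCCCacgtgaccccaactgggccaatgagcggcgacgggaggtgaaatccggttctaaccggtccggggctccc
Dot1l: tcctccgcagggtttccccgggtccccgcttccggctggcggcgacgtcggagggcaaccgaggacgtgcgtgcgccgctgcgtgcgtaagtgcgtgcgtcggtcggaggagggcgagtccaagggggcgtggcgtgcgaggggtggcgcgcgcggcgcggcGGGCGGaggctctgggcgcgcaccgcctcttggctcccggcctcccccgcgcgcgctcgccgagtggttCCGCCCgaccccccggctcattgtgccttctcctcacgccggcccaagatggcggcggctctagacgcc
Ep300: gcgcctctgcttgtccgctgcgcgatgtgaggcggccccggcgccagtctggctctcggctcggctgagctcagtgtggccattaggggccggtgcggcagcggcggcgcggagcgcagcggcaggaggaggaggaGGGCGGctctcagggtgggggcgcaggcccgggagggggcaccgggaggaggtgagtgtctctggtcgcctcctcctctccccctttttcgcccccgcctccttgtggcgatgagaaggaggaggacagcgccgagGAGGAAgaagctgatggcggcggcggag
Kmt2a: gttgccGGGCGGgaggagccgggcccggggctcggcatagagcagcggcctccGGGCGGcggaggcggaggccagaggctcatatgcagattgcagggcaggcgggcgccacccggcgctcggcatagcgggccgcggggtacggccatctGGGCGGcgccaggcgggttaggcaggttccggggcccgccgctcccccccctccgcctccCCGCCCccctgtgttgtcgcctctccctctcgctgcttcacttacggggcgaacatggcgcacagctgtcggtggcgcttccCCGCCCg
Hdac2: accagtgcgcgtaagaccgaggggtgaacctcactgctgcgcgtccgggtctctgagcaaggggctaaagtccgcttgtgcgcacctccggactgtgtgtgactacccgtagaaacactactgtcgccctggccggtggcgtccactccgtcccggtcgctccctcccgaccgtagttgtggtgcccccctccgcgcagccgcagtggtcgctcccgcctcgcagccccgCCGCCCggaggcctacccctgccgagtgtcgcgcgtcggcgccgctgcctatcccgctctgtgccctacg
Kdm6a: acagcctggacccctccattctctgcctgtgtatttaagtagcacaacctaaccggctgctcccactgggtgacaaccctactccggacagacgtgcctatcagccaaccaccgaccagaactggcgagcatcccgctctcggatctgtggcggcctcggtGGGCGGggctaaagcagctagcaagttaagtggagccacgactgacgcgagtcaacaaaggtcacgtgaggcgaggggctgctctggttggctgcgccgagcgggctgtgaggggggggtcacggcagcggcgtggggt

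The window of Hmgn2 held 2 matches of the C/EBP-type motif and 2 of the SP/KLF motif, and that of Ep300 held 1 match of the PU.1-type motif just after the start and 1 SP/KLF match. Kmt2a had 5 SP/KLF matches, Dot1l had 2, and Hdac2 and Kdm6a had 1 each. Among 32 windows of listed genes that lay inside a tested gene-end region, 27 (84.4%) held the SP/KLF motif, against 35.7% of the 32851 windows in the whole table, and the median GC content was 69.5% against 52.7%. The whole table was not limited to windows inside counted regions, so the 2 sets are unlike. Of the 32, 9 belonged to genes higher in proNeu1 than in cMoP under every scaling. The SP/KLF motif stood in 7 of these 9 and in 20 of the other 23. The PU.1-type motif stood in 9 of the 32 windows (28.1%, against 28.3% of all), and the C/EBP-type motif in 1 (3.12%, against 10.8% of all). An IRF motif (3.44% of all windows) and an NRF1 motif (0.971% of all) were also searched and stood in none of the 32. Matches are a description of these letters only and do not show that a factor binds.

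Counts in all regions of a library totalled between 1388525 and 1907810, and regions of the listed genes took between 0.441% and 0.548% of them. These totals cover the counted regions only. Levels are given in CPM, the count relative to the library total after scaling by edgeR's TMM factors. The level of a region averaged over the 8 libraries had a median of 58.3 CPM for the 41 gene-end regions of listed genes, against 30.04 CPM for all gene-end regions, and of 6.90 CPM for the 195 distal regions, against 6.40 CPM for all distal regions. A filter on low counts left 40 gene-end regions of 38 genes and 141 distal regions of 30 genes for testing, and the untested regions are those of low count. Summed levels over 9 neutrophil progenitor genes were 451 to 460 CPM in GMP-MoP, 913 to 962 CPM in proNeu1, 1076 to 1097 CPM in proNeu2 and 363 to 388 CPM in cMoP, and those over 6 monocyte progenitor genes were 604 to 624 CPM in GMP-MoP, 528 to 572 CPM in proNeu1, 543 to 555 CPM in proNeu2 and 692 to 766 CPM in cMoP. In the monocyte list Irf8, Csf1r and Klf4 were lower in both proNeu groups than in cMoP, while Cx3cr1 and Zeb2 were not highest in cMoP. Cx3cr1 had 157 and 136 CPM in proNeu1 and 160 and 150 CPM in proNeu2, against 134 and 127 CPM in cMoP. In the neutrophil list Ltf had 58.6 and 61.5 CPM in cMoP against 41.9 and 44.2 CPM in GMP-MoP. Summed levels over 6 stem and early progenitor genes were 710 to 740 CPM in GMP-MoP, 565 to 603 CPM in proNeu1, 454 to 461 CPM in proNeu2 and 674 to 737 CPM in cMoP. Summed levels over 5 T and NK cell genes, 3 of which had regions, were 45.4 to 46.9 CPM in GMP-MoP, 76.4 to 86.6 CPM in proNeu1, 76.0 to 83.1 CPM in proNeu2 and 39.6 to 42.5 CPM in cMoP. The part of these marker lists in the results below was not tested.

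Between proNeu1 and cMoP, many chromatin regulator genes had a more open gene end in proNeu1. Of the 40 tested gene-end regions, 27 were higher in proNeu1 and 0 lower (edgeR quasi-likelihood test, Benjamini-Hochberg adjusted p under 0.05 over 47506 regions), with 0 lower also at an unadjusted p under 0.05 and in DESeq2. Across all 12012 tested gene-end regions, 33.0% were higher and 8.41% lower, and among those averaging at least 30 CPM 47.4% were higher. At that level 26 of 35 regions of listed genes were higher. The median log2 fold change was 0.49 for the listed genes and 0.28 for all gene-end regions. Among those averaging at least 30 CPM it was 0.50 and 0.38. The share of a library's counts that fell in gene-end regions differed between the groups as well. It was 48.7% and 46.1% in GMP-MoP, 53.3% and 52.8% in proNeu1, 53.8% and 53.5% in proNeu2 and 46.6% and 43.8% in cMoP. With gene-end regions normalised and fitted on their own, 14 of 40 were higher in proNeu1 and 0 lower, against 13.9% higher among all regions in that fit. Offsets that follow abundance (loess) gave 13 higher and 1 lower, and without replicate 2 of cMoP 17 were higher. In sorted cells in bulk, fewer cells with an open region and less opening per cell cannot be told apart.

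Gene-end regions of 13 genes were higher in proNeu1 than in cMoP under all 5 scalings, which were TMM, DESeq2 size factors, total counts, loess offsets and gene-end regions alone. These were Hmgn2, Kmt2a, Ep300, Dot1l, Suz12, Chd7, Hdac1, Crebbp, Smarca4, Kmt2d, Kdm6b, Kdm1a and Ezh1. GMP-MoP was lower than proNeu1 under all 5 at 6 of them, Dot1l, Kdm6b, Ep300, Hdac1, Hmgn2 and Kmt2a. The sign of the log2 fold change between proNeu1 and cMoP depended on the scaling at 11 of the 40 regions, so weaker differences at the other gene ends are relative to the chosen scaling.

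The start of Hmgn2, which encodes a nucleosome-binding protein that loosens chromatin, had the largest log2 fold change of the 40 gene-end regions between proNeu1 and cMoP. Its region (mm10 chr4:133966942-133968901) had 87.4 and 75.3 CPM in GMP-MoP, 162 and 174 CPM in proNeu1, 189 and 183 CPM in proNeu2, and 78.2 and 63.0 CPM in cMoP. Both proNeu groups lay above every GMP-MoP and cMoP library, and GMP-MoP and cMoP overlapped. The log2 fold change was -1.05 ± 0.14 (SE) for GMP-MoP over proNeu1 (edgeR adjusted p = 3.45e-10) and 1.25 ± 0.14 for proNeu1 over cMoP (edgeR adjusted p = 3.17e-15). The next gene, Dhdds, lies 127 bp from the region, so by position the signal may belong to either.

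**Figure D1:**
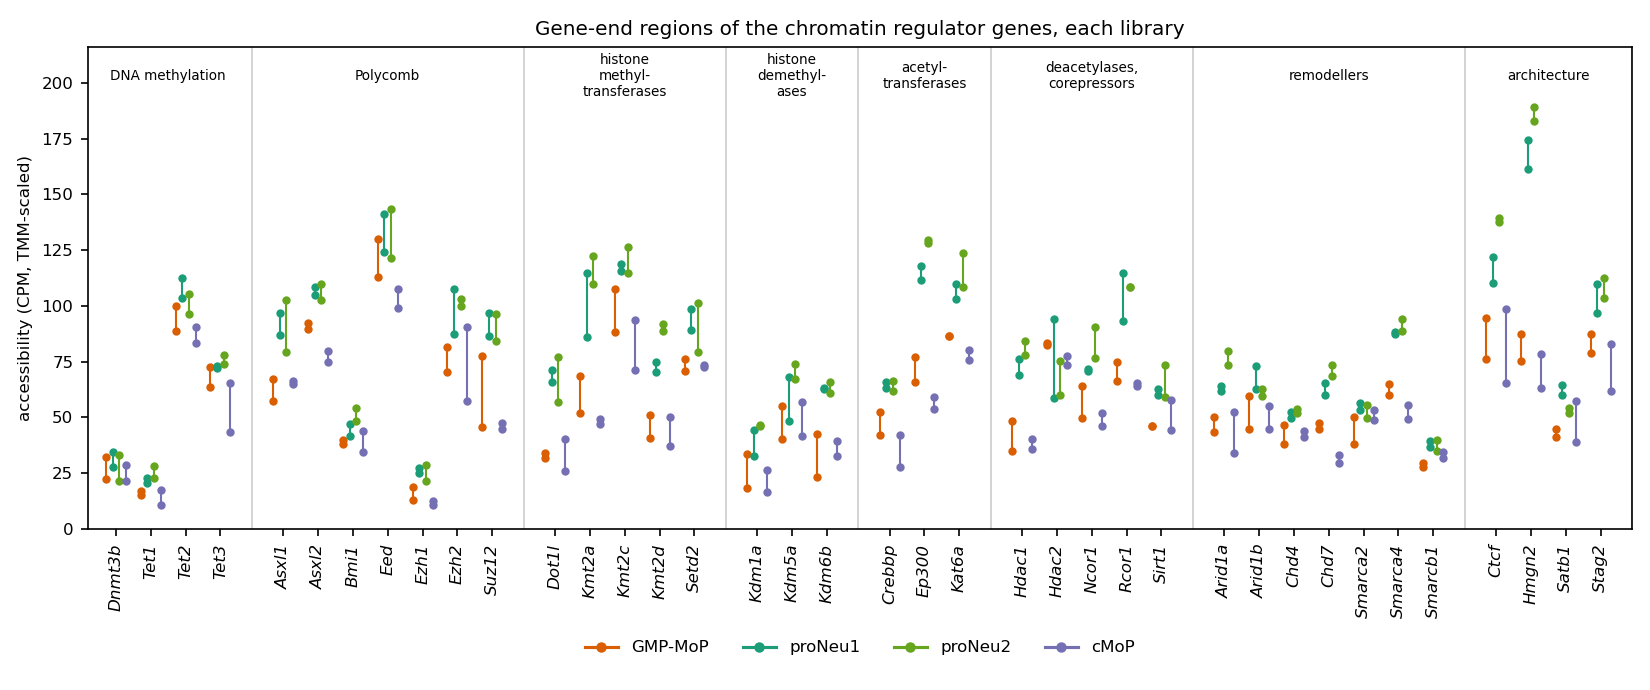
Accessibility (CPM, TMM-scaled) at the tested gene-end region of highest level of each of 38 listed genes, ordered by role, where the 2 points of each group are its libraries and the line joins them. The proNeu1 and proNeu2 points of Hmgn2, Ep300, Kmt2a, Dot1l and Hdac1 stand above all GMP-MoP and cMoP points, whereas those of Hdac2 and Dnmt3b overlap with them.

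All 5 gene-end regions of histone methyltransferase genes were higher in proNeu1 than in cMoP, and 3 of them were lower in GMP-MoP than in proNeu1. Of all gene-end regions averaging at least 30 CPM, 47.4% were higher in the first comparison and 35.9% lower in the second. Kmt2a, a trithorax-type methyltransferase needed by blood progenitors, had 68.5 and 51.8 CPM in GMP-MoP, 85.9 and 115 CPM in proNeu1, 122 and 110 CPM in proNeu2 and 49.2 and 47.3 CPM in cMoP at its start (chr9:44880917-44882047). Its log2 fold change was -0.76 ± 0.16 for GMP-MoP over proNeu1 (edgeR adjusted p = 0.000103) and 1.06 ± 0.16 for proNeu1 over cMoP (edgeR adjusted p = 5.74e-09). Dot1l, which methylates the core of histone H3, had 34.3 and 31.6 CPM in GMP-MoP, 66.1 and 71.2 CPM in proNeu1, 77.3 and 56.9 CPM in proNeu2 and 40.4 and 25.9 CPM in cMoP at its start (chr10:80754679-80755672). GMP-MoP and cMoP overlapped at Dot1l, with a log2 fold change of -1.06 ± 0.19 for GMP-MoP over proNeu1 and 1.05 ± 0.19 for proNeu1 over cMoP. At Kmt2d the gene-end region lies at the end of the gene, where it also touches Prkag1, and a region 2.03 kb inside the gene that holds a promoter entry (chr15:98871367-98872719) was also higher in proNeu1 than in cMoP, by 0.89 ± 0.19 on the log2 scale (edgeR adjusted p = 5.03e-05). The changes of Kmt2c and Setd2 were smaller, at 0.51 ± 0.14 and 0.36 ± 0.15 on the log2 scale, and neither was called with loess offsets.

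All 3 acetyltransferase genes had a more open gene end in proNeu1 than in cMoP, against 47.4% of all gene-end regions averaging at least 30 CPM. Ep300, a coactivator that acetylates histones at enhancers, had 76.9 and 65.99 CPM in GMP-MoP, 118 and 112 CPM in proNeu1, 128 and 130 CPM in proNeu2 and 59.1 and 53.9 CPM in cMoP (chr15:81584718-81586729). GMP-MoP lay between proNeu1 and cMoP at Ep300, with a log2 fold change of -0.69 ± 0.15 over proNeu1 (edgeR adjusted p = 0.000168), while its difference from cMoP, 0.33 ± 0.16, did not pass the test. Crebbp, its paralogue, had 52.4 and 42.0 CPM in GMP-MoP, 63.4 and 65.9 CPM in proNeu1, 66.1 and 62.0 CPM in proNeu2 and 42.0 and 27.9 CPM in cMoP. Kat6a changed least of the 3, by 0.45 ± 0.15 on the log2 scale between proNeu1 and cMoP, and by 0.05 with loess offsets.

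Of 8 gene-end regions of Polycomb genes, 6 were higher in proNeu1 than in cMoP and 3 were lower in GMP-MoP than in proNeu1. The shares of all gene-end regions were 33.0% and 23.8%, and of those averaging at least 30 CPM 47.4% and 35.9%. Suz12, a core subunit of Polycomb repressive complex 2, had 77.6 and 45.8 CPM in GMP-MoP, 86.6 and 96.6 CPM in proNeu1, 84.3 and 96.5 CPM in proNeu2 and 47.7 and 44.7 CPM in cMoP at its start. The 2 GMP-MoP libraries stood far apart at Suz12, and its log2 fold change was 0.99 ± 0.17 for proNeu1 over cMoP (edgeR adjusted p = 1.35e-07). Ezh1 and Ezh2 encode the alternative catalytic subunits of that complex. Ezh1 had 18.9 and 13.1 CPM in GMP-MoP, 25.2 and 27.4 CPM in proNeu1, 28.7 and 21.7 CPM in proNeu2 and 10.9 and 12.7 CPM in cMoP, a log2 fold change of 1.15 ± 0.28 for proNeu1 over cMoP. The start of Ezh2 had a log2 fold change of 0.40 ± 0.15 in that comparison, and 0.02 with loess offsets. Bmi1, of Polycomb repressive complex 1, passed the test in no comparison.

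Of the 5 tested gene-end regions of DNA methylation genes, 1 was higher in proNeu1 than in cMoP, against 33.0% of all gene-end regions, and 2 were higher in proNeu2 than in cMoP, against 40.1%. Tet3, a TET enzyme, was higher than cMoP in both proNeu groups, a call made with TMM alone among the 5 scalings for proNeu1 and with 3 of the 5 for proNeu2. Tet1, another TET enzyme, at 15.4 and 16.9 CPM in GMP-MoP, 20.4 and 22.8 CPM in proNeu1, 28.1 and 23.0 CPM in proNeu2 and 17.6 and 10.7 CPM in cMoP, was higher in proNeu2 than in cMoP by 0.86 ± 0.27 on the log2 scale (edgeR adjusted p = 0.0042). It was lower in GMP-MoP than in proNeu2, with a log2 fold change of -0.66 ± 0.27 (edgeR adjusted p = 0.0425), a call made with 2 of the 5 scalings. The start of Tet2 had 88.8 and 99.8 CPM in GMP-MoP, 104 and 112 CPM in proNeu1, 96.6 and 105 CPM in proNeu2 and 90.7 and 83.3 CPM in cMoP, and passed the test in no comparison. For Dnmt1, the maintenance methyltransferase, a RefSeq promoter entry lies inside the gene interval (chr9:20952105-20953472). That region had 45.4 and 40.4 CPM in GMP-MoP, 51.8 and 62.7 CPM in proNeu1, 79.0 and 76.7 CPM in proNeu2 and 46.1 and 40.6 CPM in cMoP, a log2 fold change of -0.87 ± 0.18 for GMP-MoP over proNeu2 (edgeR adjusted p = 1.89e-05) and 0.84 ± 0.17 for proNeu2 over cMoP (edgeR adjusted p = 6.26e-06). The proNeu1 libraries lay between those of proNeu2 and the other groups at Dnmt1.

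Among histone demethylases, Kdm6b and Kdm1a passed the test between proNeu1 and cMoP and Kdm5a did not. Kdm6b, which removes the Polycomb mark, had 42.6 and 23.5 CPM in GMP-MoP, 63.4 and 62.7 CPM in proNeu1, 60.9 and 65.8 CPM in proNeu2 and 39.4 and 32.5 CPM in cMoP at the gene end at chr11:69417526-69419533. Its X-linked paralogue Kdm6a did not follow it. The promoter entry of Kdm6a lies 1.63 kb inside the gene interval, in the strongest distal region of the listed genes, with 141 and 129 CPM in GMP-MoP, 137 and 133 CPM in proNeu1, 108 and 125 CPM in proNeu2 and 138 and 124 CPM in cMoP. The proNeu2 libraries lay below those of GMP-MoP and proNeu1, the other groups overlapped, and no comparison passed the test.

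Deacetylase and corepressor genes were divided. Hdac1 had 48.2 and 34.9 CPM in GMP-MoP, 68.8 and 76.4 CPM in proNeu1, 84.3 and 78.0 CPM in proNeu2 and 35.8 and 40.1 CPM in cMoP at its gene end, a log2 fold change of -0.83 ± 0.18 for GMP-MoP over proNeu1 and 0.94 ± 0.18 for proNeu1 over cMoP. Hdac2, the closest paralogue of Hdac1, had 83.2 and 82.4 CPM in GMP-MoP, 94.1 and 58.8 CPM in proNeu1, 75.5 and 60.1 CPM in proNeu2 and 73.6 and 77.7 CPM in cMoP. It passed the test in no comparison with TMM scaling, and with loess offsets it was called lower in proNeu1 than in cMoP, with a log2 fold change of -0.36. Rcor1, the scaffold that joins Kdm1a to Hdac1 and Hdac2, was higher in proNeu1 than in cMoP by 0.69 ± 0.15 on the log2 scale at its start (edgeR adjusted p = 5.5e-05).

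In the remodeller group 4 of 7 gene-end regions were higher in proNeu1 than in cMoP, against 47.4% of all gene-end regions averaging at least 30 CPM. Chd7, a chromodomain remodeller, had 47.5 and 44.7 CPM in GMP-MoP, 65.4 and 60.1 CPM in proNeu1, 68.5 and 73.5 CPM in proNeu2 and 33.2 and 29.5 CPM in cMoP at its gene end, so that no 2 of GMP-MoP, proNeu1 and cMoP overlapped. The log2 fold change at Chd7 was 0.55 ± 0.20 for GMP-MoP over cMoP (edgeR adjusted p = 0.0758) and 1.00 ± 0.19 for proNeu1 over cMoP (edgeR adjusted p = 2.83e-06). Smarca4 and Smarca2 are the alternative ATPases of the SWI/SNF complex. At the start of Smarca4 the log2 fold change for proNeu1 over cMoP was 0.74 ± 0.16 (edgeR adjusted p = 4.45e-05), and at that of Smarca2 it was 0.11 ± 0.18. In the architecture group Ctcf was 0.50 ± 0.14 higher on the log2 scale in proNeu1 than in cMoP, Stag2 was 0.51 ± 0.15 higher, and Satb1 did not pass the test.

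For GMP-MoP against proNeu1, 16 of the 40 gene-end regions were lower in GMP-MoP and 0 higher, with 0 higher also at an unadjusted p under 0.05 and in DESeq2. Across all gene-end regions 23.8% were lower and 4.48% higher, and among those of at least 30 CPM 35.9% were lower, against 15 of 35 of the listed genes. The 16 regions belonged to Hmgn2, Dot1l, Kmt2a, Kmt2d, Ep300, Crebbp, Kdm6b, Kdm1a, Hdac1, Rcor1, Suz12, Ezh1, Asxl1, Smarca4, Ctcf and Satb1. Asxl1 had a further tested gene-end region that went the other way. Its log2 fold change was positive for GMP-MoP over proNeu1 and negative for proNeu1 over cMoP, without passing the test in either. The number lower was 4 without replicate 2 of GMP-MoP, 10 without replicate 1 of proNeu1 and 9 without replicate 2 of proNeu1. Fewer regions of the whole table were called lower in those refits as well. The median log2 fold change of the listed gene ends was -0.40 with all libraries and -0.30, -0.39 and -0.44 in those refits. With gene-end regions fitted alone 7 were lower, against 9.4% of all regions in that fit, and with total counts 10 were lower. Loess offsets gave 6 lower and 1 higher, which was Hdac2. For GMP-MoP against proNeu2, 24 were lower in GMP-MoP and 0 higher, against 33.9% and 10.4% of all gene-end regions, with 0 higher also at an unadjusted p under 0.05 and in DESeq2. The split was 12 lower without replicate 2 of GMP-MoP, 11 lower and 1 higher both with loess offsets and with gene-end regions fitted alone, 17 lower and 1 higher with total counts, and 10 lower in DESeq2. For proNeu2 against cMoP, 27 were higher in proNeu2 and 1 lower, against 40.1% and 13.6% of all gene-end regions. The 1 lower was a gene-end region of Asxl1, whose other gene-end region was higher. With loess offsets the split was 18 higher and 1 lower, and with gene-end regions fitted alone 17 higher and 2 lower. Among gene-end regions of at least 30 CPM, the median log2 fold change for GMP-MoP over proNeu2 was -0.51 (listed) and -0.39 (all). For proNeu2 over cMoP it was 0.58 and 0.42. These comparisons share their GMP-MoP, proNeu and cMoP samples and are not independent of each other.

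**Figure D2:**
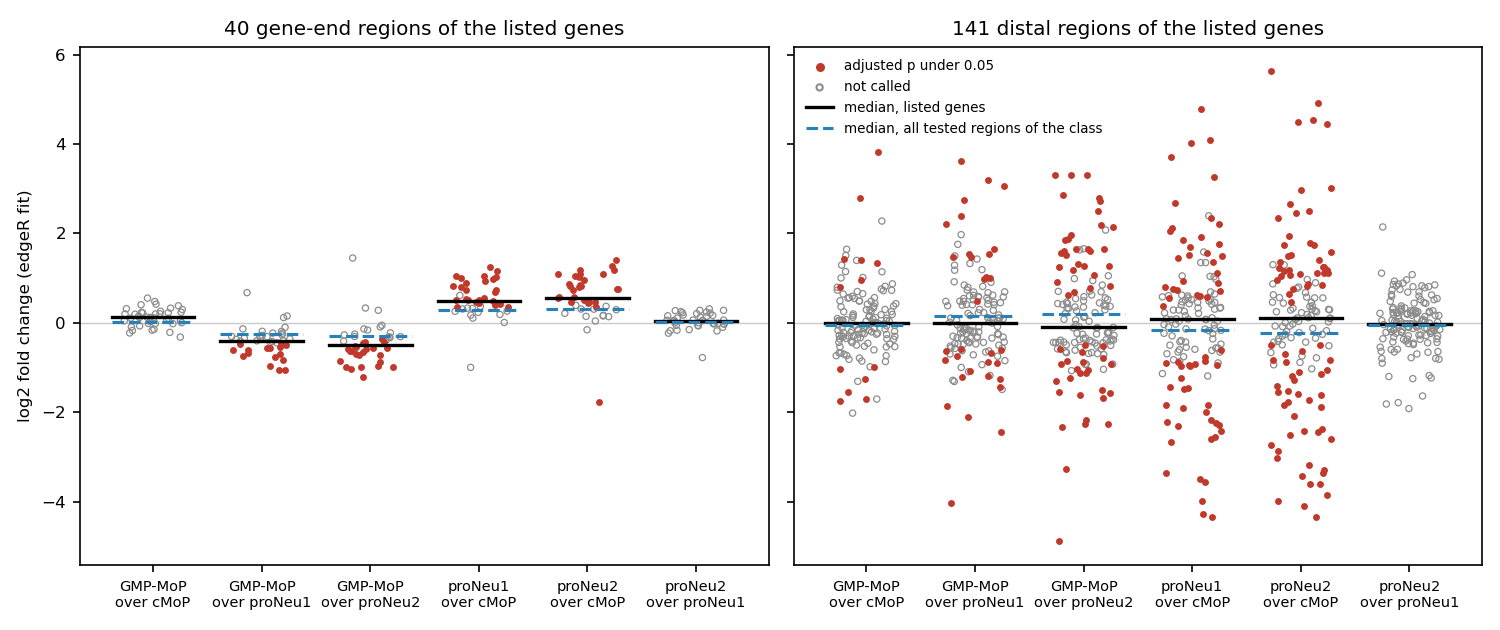
Log2 fold change of each tested region of the listed genes in 6 comparisons, gene-end regions on the left and distal regions on the right. Filled points passed an adjusted p of 0.05, the solid line is the median of the listed genes and the dashed line that of all tested regions of the class, and at gene ends both medians shift the same way, by 0.49 and 0.28 for proNeu1 over cMoP.

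Over gene-end and distal regions together, the test called 13 of 181 between GMP-MoP and cMoP, against 5.46% of all tested regions. It called 48 between GMP-MoP and proNeu1, against 24.1%, and 80 between GMP-MoP and proNeu2, against 39.2%. It called 91 between proNeu1 and cMoP, against 42.4%, 107 between proNeu2 and cMoP, against 52.6%, and 105 in a test over all 4 groups, against 52.4%. Distal regions changed in both directions. Between proNeu1 and cMoP, 31 of 141 were higher in proNeu1 and 33 lower, against 16.3% higher and 26.5% lower among all 35494 tested distal regions. Between GMP-MoP and proNeu1, 15 were higher in GMP-MoP and 17 lower, against 14.0% and 8.6% of all distal regions. Between GMP-MoP and proNeu2, 30 were higher and 26 lower, against 23.2% and 14.2%, and between proNeu2 and cMoP 39 were higher and 40 lower, against 20.1% and 32.1%. The split between higher and lower moved with the scaling. For GMP-MoP over proNeu1 it was 21 higher and 12 lower with total counts, and 13 higher and 22 lower among 136 with the regions away from gene ends fitted alone. For GMP-MoP over proNeu2 it was 39 higher and 21 lower with total counts and 25 higher and 32 lower in the fit of those regions alone, and for proNeu2 over cMoP that fit gave 49 higher and 31 lower.

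Among called distal regions of at least 10 CPM in proNeu1, those with the largest log2 fold change over cMoP lay near Hmgn2 and Rcor1. A region 23422 bp beyond Hmgn2 (chr4:133940191-133941317) had 0 and 1.64 CPM in GMP-MoP, 13.6 and 18.3 CPM in proNeu1, 31.0 and 27.5 CPM in proNeu2 and 0.518 and 0.508 CPM in cMoP. It was almost closed in GMP-MoP and cMoP, where 3 and 2 reads were counted, against 48 in proNeu1. The ratio of levels was 0.0574 for GMP-MoP over proNeu1 (95% exact counting interval 0.0114 to 0.178, edgeR adjusted p = 1.29e-08) and 31.2 for proNeu1 over cMoP (interval 8.18 to 265, edgeR adjusted p = 1.16e-11). A neighbour at chr4:133942533-133943360 had 2.80 and 3.27 CPM in GMP-MoP, 6.82 and 19.6 CPM in proNeu1, 16.4 and 13.4 CPM in proNeu2 and 2.07 and 3.05 CPM in cMoP. It was higher in proNeu1 than in both GMP-MoP and cMoP, and both calls were lost without replicate 2 of proNeu1, the higher of the 2 libraries. Another region at chr4:133931268-133931953 was lower in GMP-MoP than in proNeu1, with a log2 fold change of -1.43 ± 0.49, and was not called without either GMP-MoP library or without replicate 1 of proNeu1.

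Upstream of Rcor1, a region 28652 bp from the gene (chr12:111009612-111010715) had 3.50 and 3.27 CPM in GMP-MoP, 15.7 and 21.5 CPM in proNeu1, 35.7 and 30.7 CPM in proNeu2 and 0.518 and 1.52 CPM in cMoP. The 4 groups did not overlap at this region, with proNeu2 most open, then proNeu1, then GMP-MoP, and cMoP nearly closed. Its log2 fold change was -2.44 ± 0.42 for GMP-MoP over proNeu1 (edgeR adjusted p = 1.9e-06) and 4.09 ± 0.52 for proNeu1 over cMoP (edgeR adjusted p = 3.82e-12). The next nearest gene, Ankrd9, lies at 30530 bp, almost as near as Rcor1. Inside Asxl1, 5.16 kb from its start, a region (chr2:153350522-153351459) had 17.5 and 15.3 CPM in GMP-MoP, 39.5 and 35.3 CPM in proNeu1, 38.04 and 29.4 CPM in proNeu2 and 10.4 and 9.15 CPM in cMoP. Its log2 fold change was -1.20 ± 0.25 for GMP-MoP over proNeu1 (edgeR adjusted p = 0.000102) and 1.93 ± 0.27 for proNeu1 over cMoP (edgeR adjusted p = 2.75e-10).

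Tet2 combined a start that passed no test with distal regions that moved in opposite directions. Of its 5 tested distal regions, 1 rose and 2 fell in proNeu1 relative to cMoP, against 16.3% and 26.5% of all distal regions. The region 26256 bp beyond the end of the gene (chr3:133435864-133437421) had 28.7 and 21.8 CPM in GMP-MoP, 45.0 and 45.7 CPM in proNeu1, 35.7 and 39.6 CPM in proNeu2 and 7.77 and 11.7 CPM in cMoP. None of the groups overlapped there, with GMP-MoP between cMoP and both proNeu groups. The log2 fold change was 1.35 ± 0.29 for GMP-MoP over cMoP (edgeR adjusted p = 0.000681), -0.86 ± 0.22 for GMP-MoP over proNeu1 (edgeR adjusted p = 0.00159) and 2.21 ± 0.26 for proNeu1 over cMoP (edgeR adjusted p = 7.28e-14). Inside the gene, 26.0 kb from its start, a region (chr3:133518720-133519571) had 4.19 and 5.45 CPM in GMP-MoP, 0 and 1.31 CPM in proNeu1, 0.585 and 2.56 CPM in proNeu2 and 14.0 and 14.7 CPM in cMoP. This region was most open in cMoP and rested on 2 reads in proNeu1, with a ratio of 7.35 for GMP-MoP over proNeu1 (interval 1.73 to 65.9) and 0.0464 for proNeu1 over cMoP (interval 0.00549 to 0.176, edgeR adjusted p = 6.57e-09).

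Hdac9, a class IIa deacetylase, had most of its tested regions lower in the neutrophil progenitors. Of 16 tested distal regions, spread over the long gene, 9 fell and 1 rose in proNeu1 relative to cMoP, 10 fell and 1 rose in proNeu2 relative to cMoP, and 5 rose in GMP-MoP relative to proNeu1, with 15 of 16 log2 fold changes positive in that comparison. Of all distal regions 26.5% fell in the first comparison, 32.1% fell in the second and 14.0% rose in the third. The called regions starting at 34190905, 34499105 and 34838910 rested on 1 or 2 reads in each proNeu group, and that at 34787301 on 3 reads in proNeu2. The region at chr12:34787301-34787839 had 9.79 and 9.82 CPM in GMP-MoP, 2.04 and 4.57 CPM in proNeu1, 1.17 and 0.639 CPM in proNeu2 and 19.2 and 20.8 CPM in cMoP. No 2 groups overlapped, with cMoP most open, then GMP-MoP, then proNeu1, and proNeu2 most closed. At chr12:34195190-34196094 the levels were 8.39 and 19.6 CPM in GMP-MoP, 4.77 and 5.22 CPM in proNeu1, 2.93 and 1.28 CPM in proNeu2 and 16.1 and 19.8 CPM in cMoP, and the call for GMP-MoP over proNeu1 was lost without replicate 2 of GMP-MoP. The exception was chr12:34378202-34379288, with 13.3 and 11.998 CPM in GMP-MoP, 25.2 and 13.7 CPM in proNeu1, 26.9 and 20.4 CPM in proNeu2 and 3.63 and 5.59 CPM in cMoP, which was 2.05 ± 0.37 higher on the log2 scale in proNeu1 than in cMoP (edgeR adjusted p = 1.26e-06). Hdac4, of the same class, was mixed, with 3 of 11 distal regions up and 4 down in proNeu1 relative to cMoP. Of all distal regions 16.3% were up and 26.5% down in that comparison. The strongest Hdac4 region, which holds a promoter entry (chr1:92179824-92181226), had 101 and 87.3 CPM in GMP-MoP, 155 and 144 CPM in proNeu1, 156 and 165 CPM in proNeu2 and 108 and 96.0 CPM in cMoP.

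**Figure D3:**
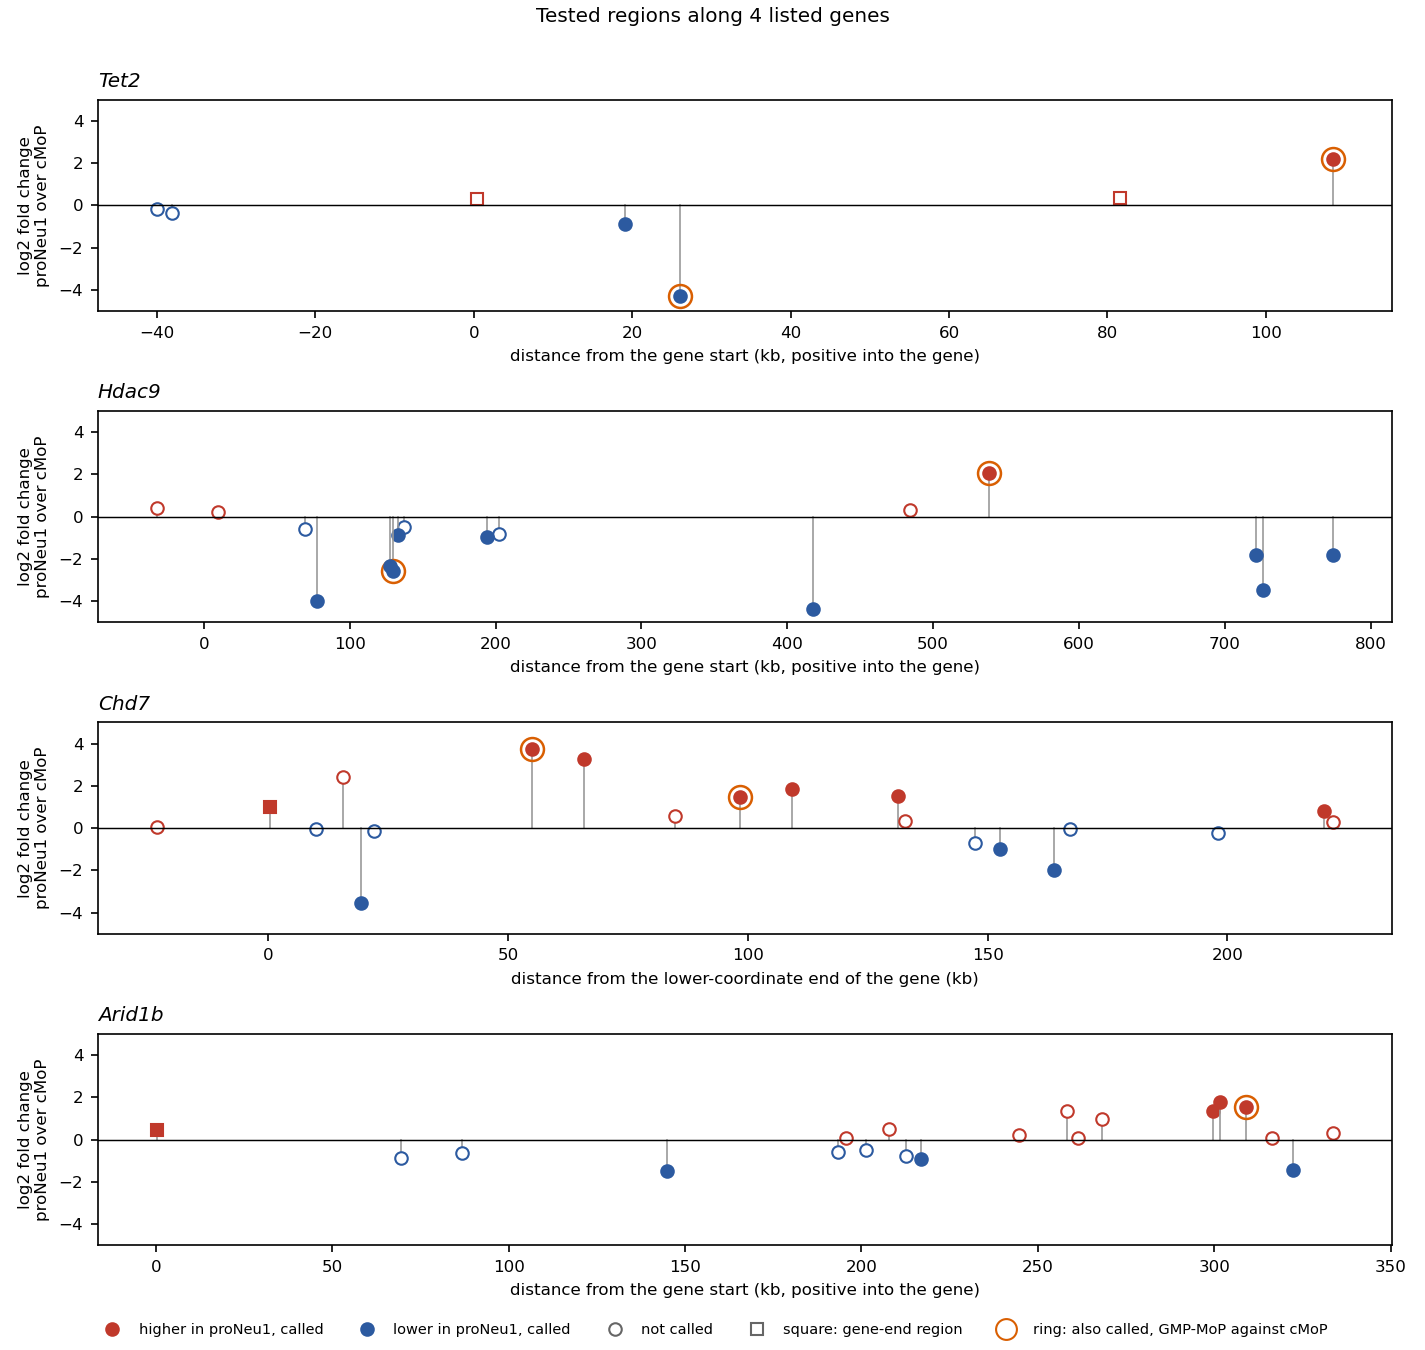
Log2 fold change for proNeu1 over cMoP (vertical axis) of each tested region along Tet2, Hdac9, Chd7 and Arid1b, by distance in kb from the gene start, or from the lower-coordinate end for Chd7, whose strand the table does not give. Filled symbols passed the test, squares are gene-end regions and rings mark regions also called between GMP-MoP and cMoP, and Hdac9 has 9 filled points below 0 and 1 above it.

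Chd7 and Arid1b, also long genes, carried changes of both signs, as did distal regions in the whole table. For Chd7, with 19 tested distal regions, 6 rose and 3 fell in proNeu1 relative to cMoP, and 3 rose and 1 fell in GMP-MoP relative to proNeu1. Of all distal regions 16.3% rose and 26.5% fell in the first comparison, and 14.0% rose and 8.6% fell in the second. A region at chr4:8853786-8854727 had 20.3 and 20.7 CPM in GMP-MoP, 6.82 and 7.83 CPM in proNeu1, 9.36 and 7.67 CPM in proNeu2 and 30.1 and 29.0 CPM in cMoP, a log2 fold change of 1.47 ± 0.35 for GMP-MoP over proNeu1 (edgeR adjusted p = 0.000527). Nearer to the lower-coordinate end, chr4:8709423-8710180 had 9.09 and 8.73 CPM in GMP-MoP, 0.682 and 1.31 CPM in proNeu1, 1.17 and 1.28 CPM in proNeu2 and 9.33 and 15.8 CPM in cMoP. With 3 reads in proNeu1 its ratio was 8.88 for GMP-MoP over proNeu1 (interval 2.75 to 45.6, edgeR adjusted p = 0.000236). For Arid1b, a SWI/SNF subunit, 3 of 19 distal regions rose and 3 fell in proNeu1 relative to cMoP, against the same 16.3% and 26.5%. The levels at chr17:5316166-5317210 were 22.4 and 19.1 CPM in GMP-MoP, 9.54 and 11.1 CPM in proNeu1, 7.61 and 12.1 CPM in proNeu2 and 29.0 and 27.9 CPM in cMoP. At the nearby chr17:5302760-5303998, which was higher in proNeu1 than in cMoP, the levels were 23.8 and 22.4 CPM in GMP-MoP, 36.1 and 32.0 CPM in proNeu1, 29.8 and 23.0 CPM in proNeu2 and 14.0 and 9.65 CPM in cMoP.

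Some distal regions of Kdm6a and 1 of Kat6a were most open in cMoP. Of the 5 distal regions of Kdm6a, 3 were lower in proNeu1 than in cMoP, against 26.5% of all distal regions. The region at chrX:18186716-18187686 had 10.5 and 11.5 CPM in GMP-MoP, 2.04 and 2.61 CPM in proNeu1, 2.34 and 3.19 CPM in proNeu2 and 16.6 and 13.7 CPM in cMoP, a log2 fold change of 2.20 ± 0.53 for GMP-MoP over proNeu1 (edgeR adjusted p = 0.000715). For Kat6a, 1 of 5 distal regions was lower in proNeu1 than in cMoP, against the same 26.5%, and 2 had a positive log2 fold change. The lower one, chr8:22935528-22936238, had 11.2 and 10.4 CPM in GMP-MoP, 1.36 and 2.61 CPM in proNeu1, 2.93 and 4.47 CPM in proNeu2 and 21.2 and 21.3 CPM in cMoP. Its log2 fold change was 2.38 ± 0.55 for GMP-MoP over proNeu1 (edgeR adjusted p = 0.000411) and -3.36 ± 0.46 for proNeu1 over cMoP (edgeR adjusted p = 1.34e-10). Of 4 tested distal regions of Smarca2, 3 fell and 1 rose in proNeu1 relative to cMoP, against 26.5% and 16.3% of all distal regions. At chr19:26747559-26748810 it had 18.2 and 21.8 CPM in GMP-MoP, 13.0 and 7.18 CPM in proNeu1, 5.85 and 7.03 CPM in proNeu2 and 18.1 and 20.8 CPM in cMoP. Arid1a, by contrast, had 3 of 4 distal regions higher in proNeu2 than in cMoP, against 20.1% of all distal regions. At chr4:133695224-133695794 it had 2.10 and 2.73 CPM in GMP-MoP, 8.18 and 5.88 CPM in proNeu1, 14.6 and 10.2 CPM in proNeu2 and 0.518 and 2.54 CPM in cMoP.

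GMP-MoP and cMoP differed at few of these regions. With TMM scaling and all libraries edgeR called 0 of the 40 gene-end regions, against 0.808% higher and 0.957% lower among all gene-end regions, 4 had an unadjusted p under 0.05, and DESeq2 called 0. With total counts edgeR called 1 higher in GMP-MoP, that of Chd7 (log2 fold change 0.59, edgeR adjusted p = 0.0451), and without replicate 2 of GMP-MoP it also called 1 higher. Among the 141 distal regions GMP-MoP was higher at 7 and lower at 6, against 2.37% and 4.34% of all distal regions, and with loess offsets it was higher at 7 and lower at 3. The higher ones lay near Tet2, Tet3, Dnmt3a, Hdac9, Arid1b and, at 2 regions, Chd7, and the lower ones near Tet2, Asxl2, Ezh2, Hdac9, Kdm6a and Kat6a. Upstream of Ezh2, 25687 bp from the gene, chr6:47620957-47621919 had 5.59 and 3.27 CPM in GMP-MoP, 3.41 and 2.61 CPM in proNeu1, 1.17 and 0.639 CPM in proNeu2 and 14.0 and 14.2 CPM in cMoP. It was lower in GMP-MoP than in cMoP, with a log2 fold change of -1.70 ± 0.42 (edgeR adjusted p = 0.00407), and the GMP-MoP libraries lay near those of proNeu1, which they overlapped. In front of Asxl2, chr12:3420467-3421116 had 2.10 and 3.82 CPM in GMP-MoP, 2.04 and 1.31 CPM in proNeu1, 0 and 1.92 CPM in proNeu2 and 10.4 and 10.7 CPM in cMoP, a log2 fold change of -1.76 ± 0.51 for GMP-MoP over cMoP (edgeR adjusted p = 0.0197). Within Kdm6a, chrX:18239503-18240143 had 5.59 and 9.27 CPM in GMP-MoP, 2.73 and 3.92 CPM in proNeu1, 1.17 and 3.83 CPM in proNeu2 and 16.1 and 20.3 CPM in cMoP, and was lower in GMP-MoP than in cMoP, with a log2 fold change of -1.24 ± 0.35 (edgeR adjusted p = 0.0136). At Arid1b, chr17:5302760-5303998 was higher in GMP-MoP than in cMoP by 0.96 ± 0.28 on the log2 scale (edgeR adjusted p = 0.022), and at Chd7 chr4:8788302-8789185 was higher by 1.403 ± 0.44 (edgeR adjusted p = 0.0325), with 6.99 and 14.2 CPM in GMP-MoP, 13.0 and 9.79 CPM in proNeu1, 8.78 and 8.31 CPM in proNeu2 and 3.11 and 5.08 CPM in cMoP.

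Of the 13, those near Tet3 and Dnmt3a and a further one in Chd7 fall outside the naming rule and were chosen after their values were seen. Inside Tet3, chr6:83432729-83433433 had 5.59 and 3.82 CPM in GMP-MoP, 3.41 and 7.18 CPM in proNeu1, 6.44 and 8.31 CPM in proNeu2 and 0 and 0.508 CPM in cMoP, a ratio of 17.9 for GMP-MoP over cMoP (interval 2.76 to 754, edgeR adjusted p = 0.00822). It rests on 1 read in cMoP. Inside Dnmt3a, a de novo DNA methyltransferase, chr12:3870582-3872181 had 39.9 and 23.5 CPM in GMP-MoP, 25.9 and 24.8 CPM in proNeu1, 21.7 and 12.8 CPM in proNeu2 and 19.7 and 15.8 CPM in cMoP, and was higher in GMP-MoP than in cMoP by 0.80 ± 0.25 on the log2 scale (edgeR adjusted p = 0.0316). In Chd7, chr4:8744823-8745749 had 3.50 and 4.36 CPM in GMP-MoP, 6.82 and 8.49 CPM in proNeu1, 12.3 and 13.4 CPM in proNeu2 and 0.518 and 0.508 CPM in cMoP, a ratio of 7.76 for GMP-MoP over cMoP (interval 1.76 to 70.9, edgeR adjusted p = 0.0334). DESeq2 called 0 of the 13, and each of the 10 that meet the rule lost its call without at least 1 of the 4 GMP-MoP and cMoP libraries. The count of 13 became 3 without replicate 1 of GMP-MoP, 5 without its replicate 2, 3 without replicate 1 of cMoP and 3 without its replicate 2. The whole table also had fewer calls in each of those refits. On simulated counts for this comparison, 12% of regions changed by 1.5 fold and 56% of those changed by 2 fold were recovered, so differences of that size can go undetected. Only regions above a minimum mean count were altered there, so recovery at regions of low count was not measured.

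**Figure D4:**
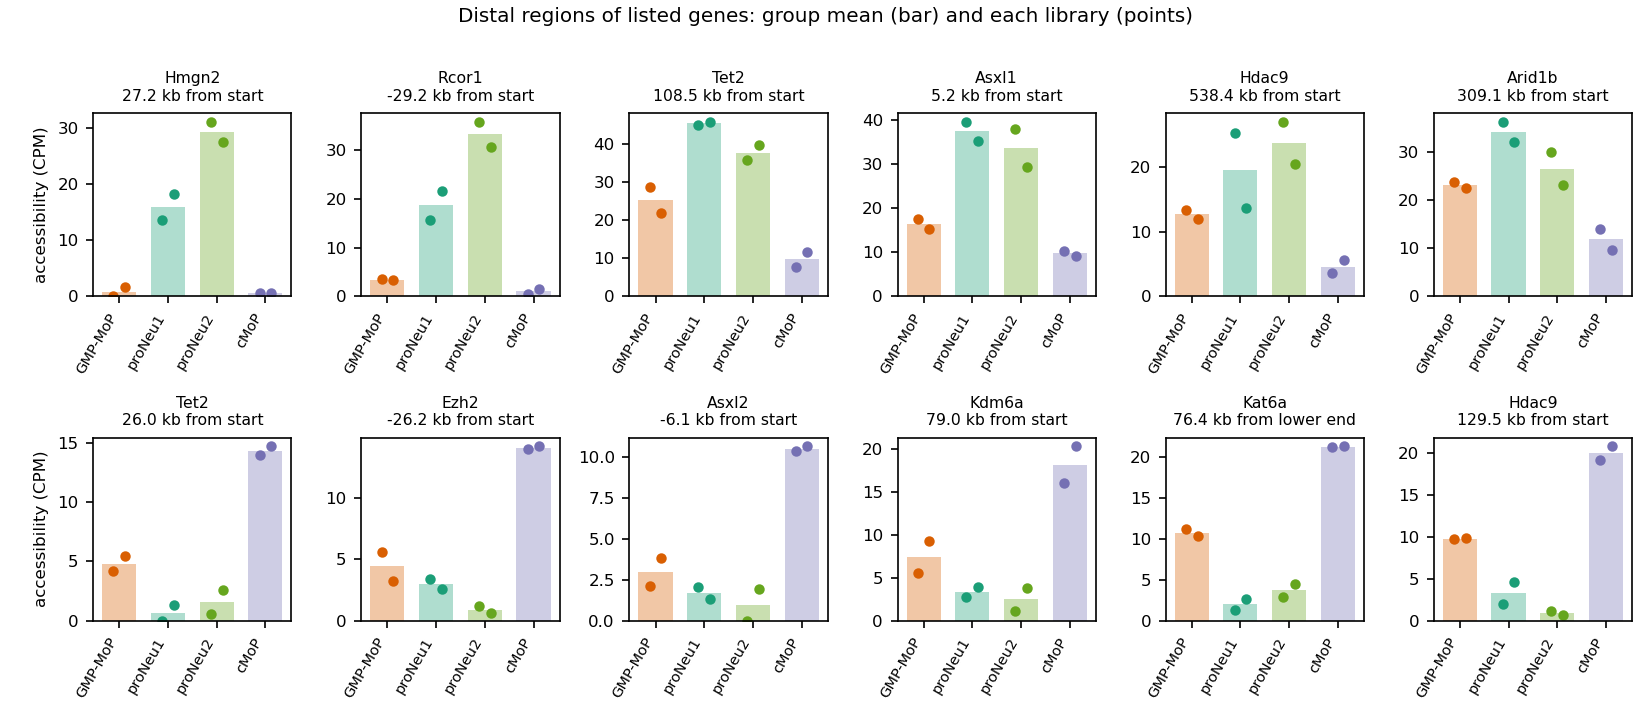
Accessibility (CPM) of 12 distal regions of listed genes, with the group mean as a bar and the 2 libraries as points, where distances are from the gene start or, for Kat6a, from the lower-coordinate end. The upper row holds regions more open in proNeu1 than in cMoP, such as the Tet2 region with 45.0 and 45.7 CPM in proNeu1 against 7.77 and 11.7 CPM in cMoP, and the lower row holds regions most open in cMoP.

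Between proNeu2 and proNeu1, 0 of the 181 tested regions of the listed genes were called by edgeR or DESeq2, against 0.0758% of all regions, and 15 had an unadjusted p under 0.05. At the regions beyond Hmgn2 and upstream of Rcor1 both proNeu2 libraries lay above both proNeu1 libraries, with log2 fold changes of 0.87 ± 0.28 for Hmgn2 (edgeR adjusted p = 0.228) and 0.83 ± 0.26 for Rcor1 (edgeR adjusted p = 0.207).

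A further 111 genes of the same machinery that are not on the list, of which 107 had regions, gave counts of the same kind. At their 100 tested gene ends, proNeu1 exceeded cMoP at 54 and fell below it at 7, against 33.0% and 8.41% of all gene-end regions. GMP-MoP exceeded proNeu1 at 4 and fell below it at 38, against 4.48% and 23.8%. GMP-MoP fell below cMoP at 2, against 0.957%. At their 237 distal regions proNeu1 exceeded cMoP at 51 and fell below it at 50, against 16.3% and 26.5% of all distal regions. GMP-MoP exceeded proNeu1 at 22 and fell below it at 25, against 14.0% and 8.6%. GMP-MoP exceeded cMoP at 5 and fell below it at 3, against 2.37% and 4.34%. Hmgn1, the closest relative of Hmgn2, was 1 of the 2 gene ends below cMoP, with a log2 fold change of -0.92 ± 0.19 for GMP-MoP over cMoP (edgeR adjusted p = 0.000414).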

How the data were processed

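The authors deposited, for each of 8 libraries, whole-number counts of reads in the same 61196 regions, and per the submitters' processing notes the mm10 build, HOMER 4.11, edgeR 3.32.1 and Bowtie2 2.3.5.1 were used. The sources used here do not give the calling of regions, any shift of reads or the read filters. Regions were linked to the nearest RefSeq protein-coding gene within 50 kb. The main test was edgeR 4.0.16 under R 4.3.3 (TMM, filterByExpr with a minimum count of 10, robust quasi-likelihood fit, 1 mean per group over all 8 libraries) with Benjamini-Hochberg adjustment over 47506 regions. Values after ± are standard errors. The intervals of ratios are exact, at 95%, and cover counting error only. DESeq2 1.42.0, other scalings (limma 3.58.1 for loess offsets), omitted libraries and a replicate block were alternatives. Named regions were each gene's gene-end region of highest level, the called regions of largest change with separate groups and at least 10 CPM (up to 10 per comparison), the 8 of smallest p in a test over all 4 groups, and genes with 3 or more called regions. Some regions given with values were not picked by this rule. They are the distal region inside Asxl1, the Arid1b region most open in cMoP and the regions with a promoter entry of Kmt2d, Dnmt1, Hdac4 and Kdm6a. Members and lists were chosen with earlier results of these data known. On simulated counts for GMP-MoP against cMoP (43715 regions), the test found 12% of 50 regions altered 1.5 fold, 56% at 2 fold, 90% at 3 fold and 100% at 4 fold, and it called 10 of 43515 unaltered ones. The altered regions were drawn only from those above a minimum mean count, and all regions were simulated with the same dispersion. Tested distal regions of the listed genes had a median of 11.1 CPM, so these rates need not hold for many of them.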

Additional observations from a re-analysis of the deposited data

How the results depend on the processing

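Called regions of the listed genes, out of 181 tested, kept within 1.5 times their count under DESeq2's size factors in edgeR, total counts, loess offsets, no filter on low counts and links within 10 kb in all comparisons. DESeq2 itself called 0 (against 13) for GMP-MoP over cMoP, 12 (against 48) for GMP-MoP over proNeu1, 29 (against 80) for GMP-MoP over proNeu2, 47 (against 91) for proNeu1 over cMoP, 67 (against 107) for proNeu2 over cMoP and 61 (against 105) for any difference among the 4 groups. Among all 47506 tested regions DESeq2 called, in that order, 37, 2135, 7133, 9242, 14505 and 12939. The main test called 2594, 11429, 18603, 20151, 24993 and 24897 of them, so DESeq2 called fewer in the whole table as well. Counts summed per gene gave, in the same order, 0, 13, 23, 19, 25 and 23 called genes. The share called among all genes is not given here, so these counts are not set against other genes. A further limit of at least 2 fold left 24 regions for GMP-MoP over proNeu1, 44 for GMP-MoP over proNeu2 and 49 for proNeu1 over cMoP, and fitting only the groups compared left 7 for GMP-MoP over cMoP. Leaving out each library in turn gave 3 to 14, 18 to 50, 45 to 85, 65 to 100 and 90 to 121 regions for those 5 comparisons, and 86 to 118 for the 4 groups together. For proNeu2 over proNeu1 each of these settings called 0.

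Of gene-end regions, the 27 higher in proNeu1 than in cMoP became 13 with loess offsets, 13 in DESeq2, 6 at 2 fold or more and 17 to 28 when libraries were left out, and 14 with gene-end regions fitted alone. The 16 lower in GMP-MoP than in proNeu1 became 10 with total counts, 6 with loess offsets, 6 in DESeq2, 10 with only those 2 groups, 2 at 2 fold or more, 7 with gene-end regions fitted alone and 4 to 20 when libraries were left out. The fits of gene-end regions alone and of the other regions alone were chosen after seeing the data. The cause of these differences was not tested.

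With replicate number as a block, the called counts were 13 for GMP-MoP over cMoP, 52 for GMP-MoP over proNeu1, 80 for GMP-MoP over proNeu2, 93 for proNeu1 over cMoP, 0 for proNeu2 over proNeu1, 108 for proNeu2 over cMoP and 108 for the 4 groups together, and 28 gene-end regions were higher in proNeu1 than in cMoP and 18 lower in GMP-MoP than in proNeu1. Deviations of samples with the same number correlated at -0.011 to 0.0793. Such values cannot tell whether samples with the same number shared an animal or a preparation. Of 50 results for single named regions, 32 kept their call under every alternative, 18 lost it under at least 1 and 0 reversed. With 2 libraries a group and a median of 6.90 CPM at distal regions, small changes at distal regions can go undetected.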
